A study of Caenorhabditis elegans with 2 samples.

Results

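Just below the authors' threshold for reproducible peaks lay a band of weaker ChIP-seq regions that nevertheless recurred in both replicates, and these are described here. The data map where the eGFP-tagged protein of ztf-4, a gene named for its zinc fingers, was recovered on the chromosomes of Caenorhabditis elegans. The material was whole L1 larvae of mixed sex from the strain OP322, which carries the mutation unc-119(ed3) III and the integrated transgene wgIs322, in 1 group of 2 biological replicates that share 1 donor record. All animals carried the mutation and the transgene, the labels name no driving promoter, and the control that the authors' calling used was not analysed here. Whole animals mix many cell types, so a weak region bound in most cells and a strong one bound in few cannot be told apart.

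The deposited lists give each region a value, called signal below and treated here as the peak caller's height, in replicate 1, in replicate 2 and in the pooled replicates. The irreproducible discovery rate (IDR) procedure then kept the 1898 regions of highest pooled signal, called IDR peaks here. The sub-threshold regions were chosen from the next 1898 ranks of the 23044 pooled regions by keeping each region whose summit lay within 100 bp of a summit in both replicate lists. This gave 1448 regions, or 76.3% of those ranks (exact 95% interval 74.3 to 78.2). Of the 450 regions of the same ranks that were not kept, 219 had a partner in replicate 1 alone, 217 in replicate 2 alone and 14 in neither. Pooled signal and replicate summits thus chose the members, so their signals and their recurrence are given as description, while location, genes and sequence were not used in the choice.

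Zinc finger transcription factors bind DNA through small zinc-stabilised folds, each of which reads a few bases. In worms most binding sites of such factors lie close upstream of genes, where promoters and enhancers are compact and often sit together. Many worm transcripts are trans-spliced to a leader RNA, so that an annotated 5' end can lie downstream of the place where transcription starts.

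The sequences below reach 50 bp to each side of the summit of 6 sub-threshold regions, read from the plus strand of the RefSeq ce11 assembly (WBcel235). Capitals mark matches on either strand to 10 6-mers that were picked on the IDR peaks alone and are described further on. The regions of cul-3, a cullin of ubiquitin ligases, and fkb-1, a peptidyl-prolyl isomerase, are shown because they were the strongest promoter regions on V and IV. Those near rsa-2, which acts in spindle assembly, ndus-8, a subunit of respiratory complex I, sti-1, a co-chaperone of Hsp90, and miz-1, a zinc finger gene, are among those that held the most matches. As 10 regions held 6 different 6-mers, ties were taken by pooled signal, and the 1 region that held 7 is not printed. The region of zip-11, whose summit lay in its 5' UTR, was also among them and is not printed. They lie at chrV:177024-177124, chrIV:11036373-11036473, chrIII:11063406-11063506, chrIII:7234308-7234408, chrV:773404-773504 and chrIV:10817169-10817269.
cul-3: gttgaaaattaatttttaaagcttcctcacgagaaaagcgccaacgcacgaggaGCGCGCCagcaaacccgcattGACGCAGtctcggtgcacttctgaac
fkb-1: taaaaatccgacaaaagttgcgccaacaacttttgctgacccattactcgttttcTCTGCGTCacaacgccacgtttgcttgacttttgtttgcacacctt
rsa-2: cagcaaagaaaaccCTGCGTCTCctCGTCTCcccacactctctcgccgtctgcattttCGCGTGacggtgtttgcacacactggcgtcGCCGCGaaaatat
ndus-8: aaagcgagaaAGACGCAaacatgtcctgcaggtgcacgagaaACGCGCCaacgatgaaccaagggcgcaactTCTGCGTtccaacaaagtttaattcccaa
sti-1: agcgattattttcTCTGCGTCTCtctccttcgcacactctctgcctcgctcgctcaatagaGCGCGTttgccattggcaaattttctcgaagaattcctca
miz-1: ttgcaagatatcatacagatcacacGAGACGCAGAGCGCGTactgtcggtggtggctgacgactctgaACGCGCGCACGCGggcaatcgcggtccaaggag

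The strongest promoter regions on II, III and X held none of these 6-mers within 50 bp of the summit. They belonged to taf-8, a subunit of the general transcription factor TFIID, to ztf-8, a zinc finger gene, and to mrp-2, an ABC transporter gene. The taf-8 and mrp-2 windows are given for contrast, from chrII:9669138-9669238 and chrX:573484-573584.
taf-8: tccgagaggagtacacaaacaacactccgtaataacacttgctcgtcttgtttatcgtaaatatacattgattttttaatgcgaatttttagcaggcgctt
mrp-2: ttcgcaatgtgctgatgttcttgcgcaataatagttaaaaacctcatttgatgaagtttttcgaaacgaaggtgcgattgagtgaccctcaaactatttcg

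The pooled signal of the 1448 sub-threshold regions ran from 33.7 to 49.5 with a median of 39.7, set by the rule, against a median of 72.3 and a top value of 904 in IDR peaks. In replicate 1 their signal ran from 7.88 to 45.3 (median 20.01) and in replicate 2 from 7.24 to 39.1 (median 19.1). The replicates were therefore alike in level, and the pooled value lay near their sum, with a median ratio of 1.02. In 1348 regions that ratio was between 0.8 and 1.2, in 86 it was above 1.2 and in 14 it was below 0.8. The deposited −log10 q value ran from 1.40 to 3.14 (median 2.32). All 1448 regions were 350 bp wide.

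At the upper edge, the last IDR peak (rank 1898, on II) had signal 49.6 in the pooled list, 19.5 in replicate 1 and 24.7 in replicate 2. The first sub-threshold region kept (rank 1900, near W06H8.6 on V) had 49.5, 34.3 and 15.01. At the lower edge, the last kept (chrIV:12674916-12675265) had 33.7, 14.2 and 21.97, and the next region down (rank 3797, on X) had 33.7, 9.90 and 26.4. The regions on either side of each edge thus differed little in pooled signal. How the replicates shared it varied on both sides of the upper edge. The IDR peak of rank 1897 had 29.0 in replicate 1 and 20.6 in replicate 2, and the sub-threshold region of rank 1902 had 25.5 and 22.8.

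Most sub-threshold regions were shared about evenly by the replicates. In 1150 of 1448 (79.4%) the replicate signals lay within 2-fold of each other, in 179 replicate 1 was at least 2-fold higher and in 8.22% replicate 2 was. Among the 1767 IDR peaks matched in both replicates, 1592 (90.1%) were within 2-fold. Only 2 sub-threshold regions ranked 1898 or better in both replicate lists, while 351 did so in 1 of the 2 and 1152 ranked 10000 or better in both. Of the matched IDR peaks, 1169 ranked 1898 or better in both. The rule limits this count in sub-threshold regions, since their pooled signal lay near the sum of the replicates and ended at 49.5. Across sub-threshold regions the replicate signals had Spearman's rho −0.46, a value bounded by the rule, since a narrow range of the sum makes one replicate low where the other is high.

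**Figure D1:**
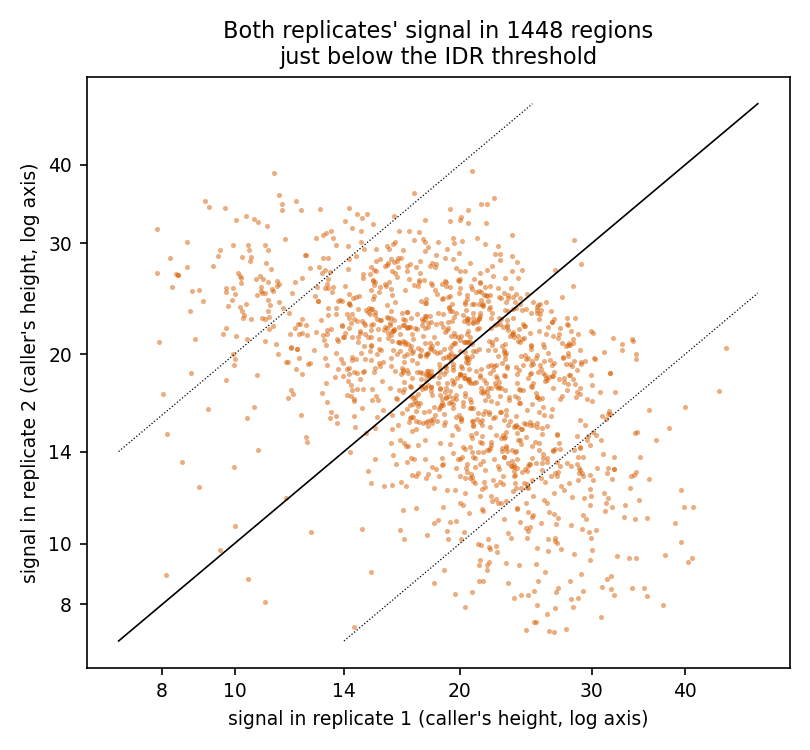
Signal in replicate 1 (x axis, log scale) against replicate 2 (y axis, log scale) for each of the 1448 sub-threshold regions. The solid line marks equal signal and the dotted lines a 2-fold difference, with 1150 regions between the dotted lines, 179 beyond on the replicate 1 side and the other 8.22% beyond on the replicate 2 side.

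The pair that ranked 1898 or better in both replicates lay upstream of rps-8, which encodes a protein of the small ribosomal subunit, and of phm-2, a gene named for its pharynx phenotype. The rps-8 region (chrIV:7313974-7314323, summit at −289 bp) had signal 47.7 pooled, 29.0 in replicate 1 and 27.8 in replicate 2. The phm-2 region (chrI:11517165-11517514, −218 bp) had 45.3, 28.4 and 30.4. Both replicates were at a like level at each gene, which follows from choosing by rank in both lists under a capped pooled signal. The regions next in order of their lower replicate rank lay near eif-3.E, a subunit of translation initiation factor eIF3, cpg-1, an eggshell proteoglycan gene, and asic-2, a sodium channel gene of the degenerin family. At eif-3.E (−210 bp) the signals were 48.3, 26.8 and 27.2. At cpg-1 (2053 bp beyond the 5' end, intergenic) they were 48.9, 28.3 and 25.7, and in the asic-2 intron (197 bp) 47.6, 27.4 and 24.6. The other 5 of the 10 regions that recurred best lay near rsa-2, nrsn-1, hlh-11, a bHLH factor, tbb-2, a beta-tubulin gene, and Y38E10A.22. The last of these had its summit in an intron of rgs-4, a regulator of G protein signalling.

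At the other extreme, regions led by 1 replicate were found by the largest replicate ratio, a choice made after the values were seen. Near hyl-1, a ceramide synthase gene, a summit in an intron of pkg-2 had 37.6 pooled, 7.89 in replicate 1 and 31.6 in replicate 2. Upstream of dnc-2, a dynactin subunit gene, and bcl-7 the values were 44.9, 9.12 and 35.0, and in an intron of unc-15, the paramyosin gene, 36.2, 9.23 and 34.2. Replicate 2 was the higher one at these 3. In the opposite direction, the region at mep-1, a zinc finger gene of chromatin repression, had 47.3 pooled, 40.8 in replicate 1 and 9.48 in replicate 2. A region in the 3' UTR of spk-1, an SR protein kinase gene, had 45.4, 37.3 and 7.99. At all 5 the lower replicate ranked between 16580 and 27181 in its own list.

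The 15 sub-threshold regions of highest pooled signal (49.3 to 49.5) included 8 with a summit in a promoter window, defined as 1000 bp upstream to 200 bp downstream of the 5' end of a protein-coding gene. These lay at zig-1, ztf-8, mrp-2, K07E3.2, R05D7.2 and Y37B11A.3, at his-24, a linker histone gene, and between pbs-7, a proteasome subunit gene, and F39H11.1. The ztf-8 summit lay in its coding exon 37 bp past the 5' end, with signals 49.5, 31.7 and 18.7. At his-24 (−46 bp, chrX:14489873-14490222) they were 49.4, 22.6 and 22.8, and at pbs-7 (−124 bp) 49.4, 26.6 and 21.3. The replicates were nearly equal at his-24 and replicate 1 was the higher at ztf-8 and pbs-7. The Y37B11A.3 summit (−449 bp, signals 49.4, 20.6 and 27.9) also lay in an intron of rev-3, the catalytic subunit of DNA polymerase zeta. The other 7 lay away from promoter windows, near W06H8.6, F01G4.6, F48F7.5, sup-26, slrp-1, R07G3.8 and lido-7. Of these, the F01G4.6 summit was in the 5' UTR of that gene (49.5, 11.3 and 38.8) and the summit near slrp-1 in a coding exon of nuaf-1 (49.4, 39.9 and 11.4), so that both were carried mainly by 1 replicate.

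Sub-threshold regions lay in promoter windows less often than IDR peaks and more often than their share of the genome. Of 1448 summits, 573 (39.6%, 37.0 to 42.1) fell in a promoter window, against 936 of 1898 IDR summits (49.3%, 47.0 to 51.6), a difference of −9.74 percentage points (Fisher's exact test, 2-sided, p = 2.0e-08, odds ratio 0.673). The IDR list was not filtered for a match in both replicates. Against the IDR peaks that were matched, a comparison added after seeing the data, the difference was −11.3 points. Promoter windows made up 21.5% of genome bases. The 1147 regions that recurred in both replicates among the next 1898 ranks had 33.0%. In windows of 300 bp upstream to 100 bp downstream, 23.6% of sub-threshold summits and 31.3% of IDR summits were held by 7.68% of genome bases. Regions are not replicates of a condition and neighbours share genes, so these p-values describe the 2 lists and not the spread between animals. When a match had to lie among the strongest regions of each replicate, as many as there were ranks down to the band's lower edge, 318 regions were left and the difference was −4.98 points (Fisher's exact p = 0.102).

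The share fell with rank without a step at the threshold. Among regions matched in both replicates it was 54.8% in ranks 1 to 949 and 46.5% in ranks 950 to 1898. It was 41.97% (38.4 to 45.6) and 36.9% (33.3 to 40.6) in the nearer and the farther 949 of the ranks described here, and 31.7% and 34.3% in the next ranks. The intervals of neighbouring steps overlap from rank 950 on. The share of regions matched in both replicates fell along the same steps, from 97.7% and 88.5% to 80.1% and 72.5%, and then to 62.8% and 58.1%. For scale, 1.40% of the genome lay within 100 bp of summits of both replicates.

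**Figure D2:**
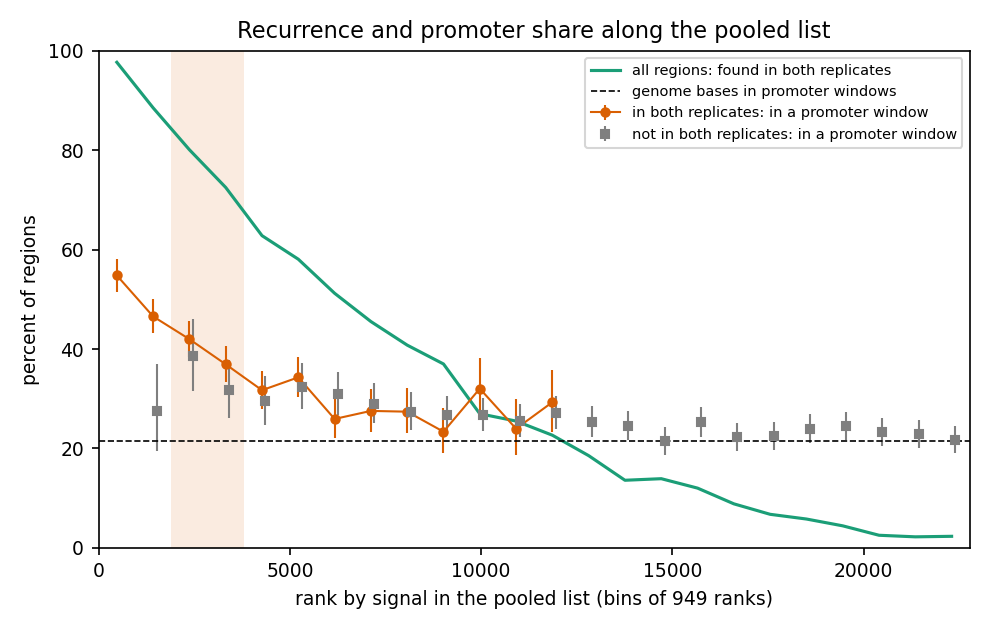
Share of regions found in both replicates (green line) and share with a summit in a promoter window (circles for regions in both replicates, squares for the others) in bins of 949 ranks of the pooled list, with exact 95% intervals. The shaded ranks are those described here, and the dashed line marks the 21.5% of genome bases in promoter windows. Bins with under 200 matched or under 100 unmatched regions are not drawn.

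The comparison within the same ranks asked whether recurrence went with location. The 450 regions of the same ranks that were not matched in both replicates had 156 summits in promoter windows (34.7%, 30.3 to 39.3), a difference of 4.91 points in favour of the sub-threshold regions (Fisher's exact test, 2-sided, p = 0.0671, Benjamini-Hochberg adjusted over 2 tests 0.134). With summit distances of 50 bp, which split the same ranks into smaller and larger sets, the difference was 5.49 points (Fisher's exact test, adjusted p = 0.0283). With matches among the strongest regions of each replicate it was 7.12 points (Fisher's exact test, adjusted p = 0.0387), so both settings passed the threshold. None of the other alternatives planned beforehand passed. Their adjusted p by the same exact test ran from 0.0689 (matching by overlap) to 0.559 (without replicate 2). The unmatched regions lay nearer to IDR peaks, with a median of 5887 bp to the nearest IDR summit against 10491 bp. Of the unmatched, 14.2% lay within 1000 bp of one, against 8.36% of sub-threshold regions and 3.499% of genome bases. The part of this distance in the comparison was not tested.

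Taken over all summits, sub-threshold regions lay farther from 5' ends than IDR peaks, with a median distance of 1096 bp against 748 bp. Of 695 that lay within 1000 bp of the nearest 5' end, 68.2% were upstream, with a median position of −134 bp. The 1060 IDR summits within that distance were upstream in 80.8%, with a median of −175.5 bp. The 100 bp bin from −200 to −100 held 8.43% of all sub-threshold summits against 11.7% of IDR summits. Just past the 5' end the order was the other way, with 2.69% against 1.16% in the bin from 100 to 200 bp. More than 5000 bp from any 5' end lay 164 sub-threshold summits (11.3%) against 9.64% of IDR summits. No test was made of these positions.

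**Figure D3:**
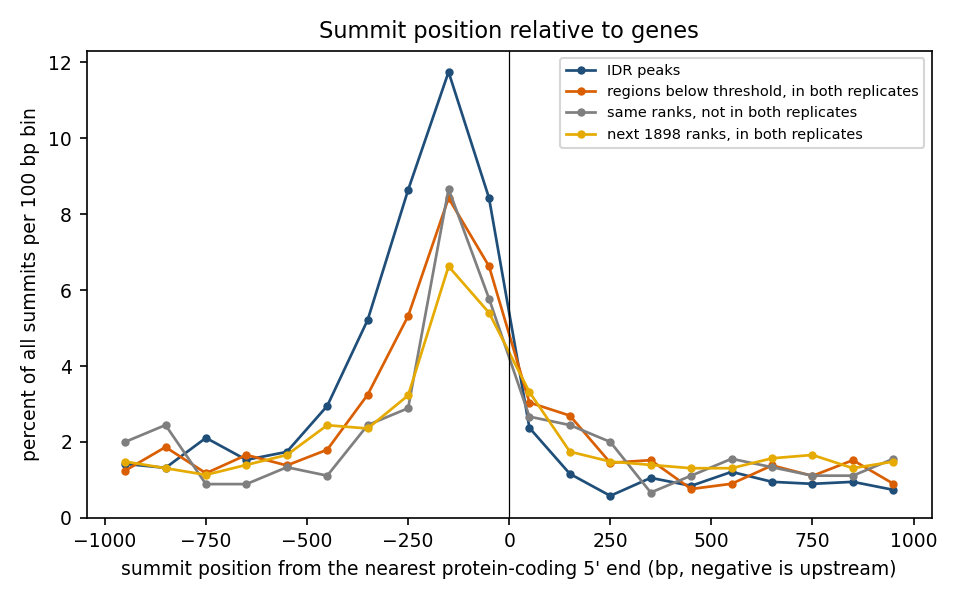
Percent of all summits per 100 bp bin around the nearest 5' end of a protein-coding gene (x axis in bp, negative is upstream) for IDR peaks, sub-threshold regions, unmatched regions of the same ranks and matched regions of the next 1898 ranks. All 4 lines are highest from −200 to −100 bp, at 11.7% for IDR peaks and 8.43% for sub-threshold regions.

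By annotation at the summit, 750 sub-threshold regions (51.8%) were intergenic, 347 (24.0%) intronic, 141 (9.74%) in coding exons, 101 (6.98%) in exons of non-coding genes or pseudogenes, 56 (3.87%) in 5' UTRs and 53 (3.66%) in 3' UTRs. Coding exons held 9.74% against 4.37% of IDR summits (Fisher's exact test, 2-sided, Benjamini-Hochberg adjusted over 6 classes, p = 7.39e-09). Unmatched regions of the same ranks held 9.78% there, and matched regions of the next 1898 ranks 14.7%. The higher share was thus not particular to the regions that recurred. By the same exact test, 3' UTRs held 3.66% against 1.63% (adjusted p = 0.00061), with 3.78% in unmatched regions. That call was lost in the nearer 949 ranks (1.13 points, exact test, adjusted p = 0.127) and with matches among the strongest regions of each replicate (1.197 points, adjusted p = 0.25). Intergenic sequence held less, 51.8% against 61.0% (exact test, adjusted p = 3.7e-07), with 49.3% in unmatched regions. In the same exact tests, introns (24.0% against 20.97%, adjusted p = 0.048) and non-coding exons (6.98% against 9.06%, adjusted p = 0.0453) differed narrowly, and both fell short of the threshold when summits had to match within 50 bp (adjusted p = 0.27 and 0.0572) and in the nearer 949 ranks (both 0.228). Introns held 27.3% and non-coding exons 6.22% of the unmatched regions. The 5' UTR share, 3.87% against 3.00%, did not pass the exact test (adjusted p = 0.177). Coding exons make up 24.6% of genome bases and introns 34.0%, so both lists were below the genome there, while intergenic sequence makes up 33.4% of bases.

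Outside promoter windows lay 875 sub-threshold regions (60.4%), of which 339 were intergenic, 315 intronic and 96 in coding exons. The bodies of 549 of 19973 protein-coding genes held at least 1 summit, and their median length was 5.16 kb against 2.03 kb for all protein-coding genes. A longer body offers more room for a summit wherever summits fall, so the lengths are description only and were not tested. The bodies of 53 genes held 2 summits and those of 15 held 3 or more. The most, 6, were in ncl-1 on III (18.4 kb), a TRIM-NHL gene that restrains nucleolar size, whose body also held 2 IDR summits. There were 4 each in lin-42 (19.1 kb), the worm counterpart of Period in developmental timing, in akap-1 (13.3 kb), an A-kinase anchor gene, and in F46H5.3 (7.96 kb). Of these, akap-1 and F46H5.3 held no IDR summit. Among genes with 3 were egl-27 and let-607, a chromatin factor and a bZIP factor, and kin-1 and mbk-2, which encode protein kinases.

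**Figure D4:**
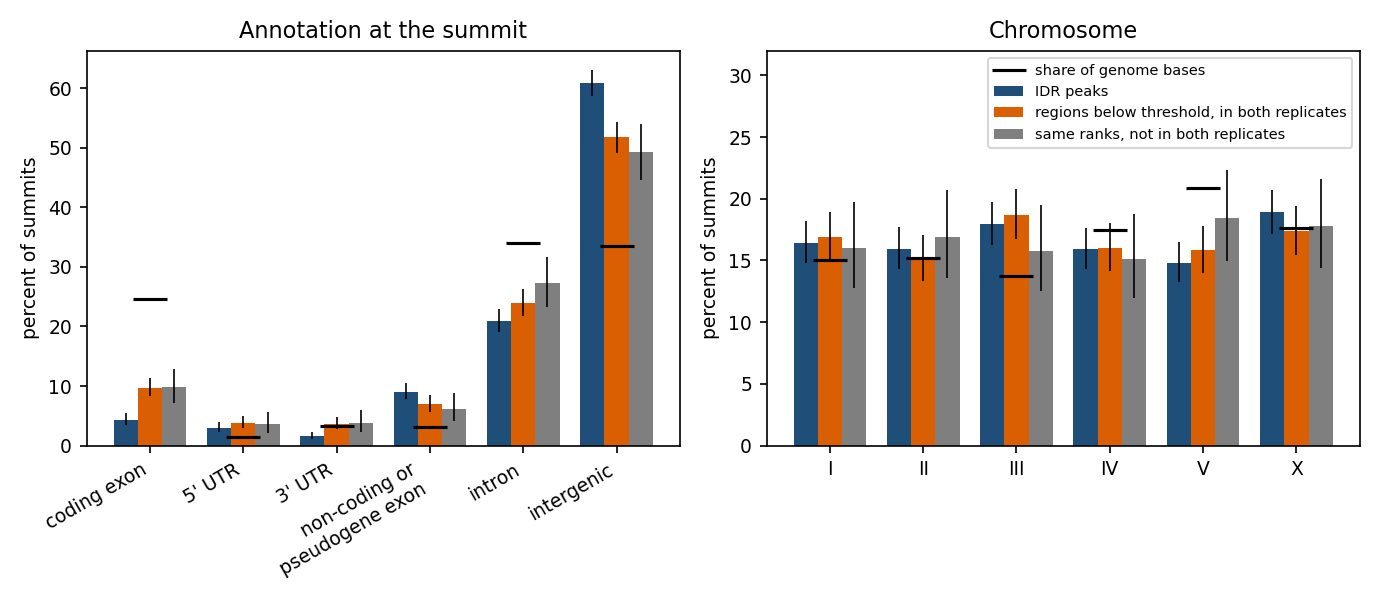
Percent of summits by annotation (left) and by chromosome (right) for IDR peaks, sub-threshold regions and unmatched regions of the same ranks, with exact 95% intervals, beside the share of genome bases (black marks). Coding exons held 9.74% of sub-threshold, 4.37% of IDR and 9.78% of unmatched summits, and the chromosome shares overlapped.

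No difference in chromosome share between sub-threshold regions and IDR peaks passed the test. Chromosome I held 245 (16.9% against 16.4% of IDR peaks), II 219 (15.1% against 15.96%), III 271 (18.7% against 17.97%), IV 232 (16.02% against 15.9%), V 229 (15.8% against 14.8%) and X 252 (17.4% against 18.9%). All 6 adjusted p-values were between 0.882 and 0.962 (Fisher's exact test, 2-sided, Benjamini-Hochberg). The X share of sub-threshold regions had an exact 95% interval of 15.5 to 19.5%, while X makes up 17.7% of bases and holds 13.7% of protein-coding genes. Chromosome V, with 20.9% of bases, held fewer summits than its length in both lists, and III, with 13.7% of bases, held more. On autosomes 48.0% of sub-threshold summits lay in the central 33.3% of the chromosome's length, against 47.7% of IDR summits, and on X 36.1% against 32.6%.

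On X, sub-threshold regions lay in promoter windows less often than on autosomes, a comparison chosen after the values were seen. On X it was 73 of 252 (29.0%, 23.4 to 35.0) and on autosomes 500 of 1196 (41.8%, 38.99 to 44.7; Fisher's exact test, 2-sided, unadjusted p = 0.000164). Promoter windows made up 17.6% of the bases of X and 22.3% of those of autosomes, and the shares were not tested relative to these. IDR peaks had 41.8% on X and 51.1% on autosomes, so that both lists were lower on X. Against unmatched regions of the same ranks, sub-threshold regions were higher by 8.29 points on autosomes (Fisher's exact test, unadjusted p = 0.00432). On X the difference was −11.03 points (Fisher's exact test, unadjusted p = 0.0733), where the unmatched regions numbered 80.

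A sub-threshold region lay in the promoter window of 706 of 19973 protein-coding genes (3.53%) and an IDR peak in that of 1213 (6.07%). Both kinds were present at 30 genes, which is 4.25% of the genes with a sub-threshold region and 2.47% of those with an IDR peak. The sub-threshold regions thus touched the promoter windows of 676 genes with no IDR peak. The 4.25% that had one compares with 6.07% of all protein-coding genes, so most genes lacked an IDR peak in either case. Of the 573 promoter regions, 23.4% served the windows of at least 2 genes, against 30.7% of those of IDR peaks, so genes of a shared window are not separate observations. Over the 30 gene lists counted, the share of genes with a sub-threshold region is read against 3.53% and that with an IDR peak against 6.07%, with no test.

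Of the lists, that of the small cytosolic ribosomal subunit had the highest share. Among its 33 genes, 7 (21.2%) had a sub-threshold region and a further 19 an IDR peak, so 26 had either. Among 50 large subunit genes only rpl-33 had one (2.00%), while 29 had an IDR peak. After rps-8, the strongest were rps-11 (−364 bp, signals 46.9 pooled, 25.8 in replicate 1 and 20.7 in replicate 2) and rps-18 (−765 bp; 45.2, 22.2 and 18.8), and the rpl-33 region (−320 bp) had 35.8, 15.2 and 19.5. The remaining small subunit genes were rps-5, rps-7, rps-9 and rps-24, all with summits from −398 to −267 bp. The rps regions thus reached further up the band than the rpl-33 region. Mitochondrial ribosomal protein genes had 6 of 70 (8.57%), led by mrpl-17 (48.1, 13.9 and 24.3), mrps-16 (47.3, 16.7 and 28.5) and mrpl-32 (45.3, 16.3 and 22.6). In this list replicate 2 was the higher at these 3 and at mrpl-40 and mrps-31, and replicate 1 at mrpl-47. Translation factors had 4 of 43 (9.30%), with eif-3.E strongest, and aminoacyl-tRNA synthetases, which charge tRNAs, 4 of 32 (12.5%) against 3 with an IDR peak. Of these, gars-1, the glycyl-tRNA synthetase gene, had 49.3, 28.9 and 15.7, and fars-1 and aars-1 had pooled signals of 39.6 and 37.7.

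Genes of energy supply and protein handling followed. Respiratory chain and ATP synthase genes had 9 of 69 (13.04%) beside 21 with an IDR peak. They were led by ndus-8 (−156 bp; 45.3, 14.9 and 29.4), atp-4 (44.9, 19.7 and 21.6) and ucr-1, a subunit of complex III (41.8, 14.9 and 21.5). In this list replicate 2 was the higher at these 3 and at ndua-1, atp-2 and cox-6C, and replicate 1 at cox-4, ndua-2 and nduf-9. Vacuolar ATPase genes, whose products acidify organelles, had 4 of 20 (20%) and as many with an IDR peak, with vha-1 at 49.3, 23.4 and 30.9, vha-2 at 46.8, 28.8 and 13.2 and vha-13 at 42.1, 30.4 and 13.2. Chaperone genes had 8 of 68 (11.8%), led by pfd-3, a prefoldin subunit (47.9, 16.2 and 28.4), sti-1 (45.3, 17.9 and 26.2) and cct-4, of the cytosolic chaperonin (44.7, 18.5 and 25.3). Proteasome genes had 3 of 33 (9.09%), which are pbs-7, rpt-1 (46.3, 23.5 and 23.6) and rpn-12 (42.9, 29.4 and 15.4). Autophagy genes had 2 of 27, atg-3 and hlh-30, a counterpart of mammalian TFEB. No Rab GTPase gene of 21 had a sub-threshold region, while 7 had an IDR peak. A count of 0 of 21 allows a share of up to 16.1% by the exact 95% interval.

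Among genes of RNA production and the nucleus, splicing factors had 8 of 64 (12.5%), led by rsp-3, an SR protein (49.0, 19.4 and 32.6), snr-2, an Sm protein (45.5, 18.97 and 24.6) and rnp-1 (44.9, 22.8 and 22.1). Nuclear pore and transport genes had 6 of 40 (15%), led by ima-1, an importin alpha (45.1, 16.5 and 26.6), the small GTPase gene ran-1 (40.1, 17.9 and 21.4) and npp-16, a nucleoporin (39.4, 20.1 and 15.8). Genes of RNA polymerase II, TFIID and Mediator had 6 of 57 (10.5%), led by taf-8 (49.3, 31.1 and 20.2), rpb-7 (44.5, 17.96 and 30.1) and mdt-22, which also had an IDR peak (40.4, 11.1 and 23.4). Chromatin regulators had 5 of 94 (5.32%), led by swsn-7, of the SWI/SNF complex (46.9, 28.6 and 17.4), spr-4 (42.3, 25.5 and 16.96) and lin-40, an MTA gene of the NuRD complex (41.9, 23.0 and 19.6). Histone genes had 4 of 82 (4.88%). Beside his-24, a single region served the neighbours his-59 and his-60 (48.4, 14.8 and 32.9). Cell cycle genes had 2 of 40, mcm-2, of the replicative helicase, and cki-1, a cyclin-dependent kinase inhibitor.

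Among developmental and tissue genes the shares ran from 2.56% to 8.70%. Zinc finger genes of the ztf and klf families had 4 of 48 (8.33%) against 3 with an IDR peak, which are ztf-8, ztf-3 (38.5, 21.9 and 15.3), ztf-27 (36.3, 15.4 and 15.2) and ztf-9. Homeobox and bHLH factors had 5 of 120 (4.17%), led by hlh-11 (48.4, 25.6 and 24.0), whose promoter also held an IDR peak 203 bp away, the Hox gene mab-5 (45.9, 21.1 and 21.9) and hlh-1, the worm MyoD (38.6, 13.3 and 19.2). Nuclear hormone receptors had 7 of 273 (2.56%), led by nhr-158, nhr-46 and nhr-19 with pooled signals of 47.6, 46.0 and 42.1. Among 23 genes of sex determination and dosage compensation were dpy-27 (45.3, 23.6 and 22.8) and mix-1 (39.2, 16.5 and 20.9), both of the condensin complex that acts on X. Body wall muscle genes had 3 of 49, hlh-1, unc-89 and act-1. Synaptic and pan-neuronal genes had 1 of 36, ric-19, and heterochronic genes 1 of 20, lin-66. Collagens had 6 of 178 (3.37%), led by col-71, col-63 and dpy-2 with pooled signals of 48.8, 46.1 and 42.9.

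Large families of environmental genes lay below the share of all genes. Chemoreceptors had 7 of 1365 (0.513%, 0.206 to 1.05) against 5 with an IDR peak, led by srsx-26, srbc-58 and srlf-7 with pooled signals of 47.7, 47.5 and 45.5. C-type lectins had 1 of 240, clec-53. Cytochromes P450 and conjugating enzymes had 3 of 188 (1.60%, 0.330 to 4.59), an interval that includes the 3.53% of all genes. They are gst-9, gst-42 and ugt-13. F-box and MATH-BTB genes had 0 of 417 (exact upper bound 0.881%) against 10 with an IDR peak. Outside these families, major sperm proteins had 0 of 31 for both kinds of region, where the exact upper bound of 11.2% lies above 3.53%.

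**Figure D5:**
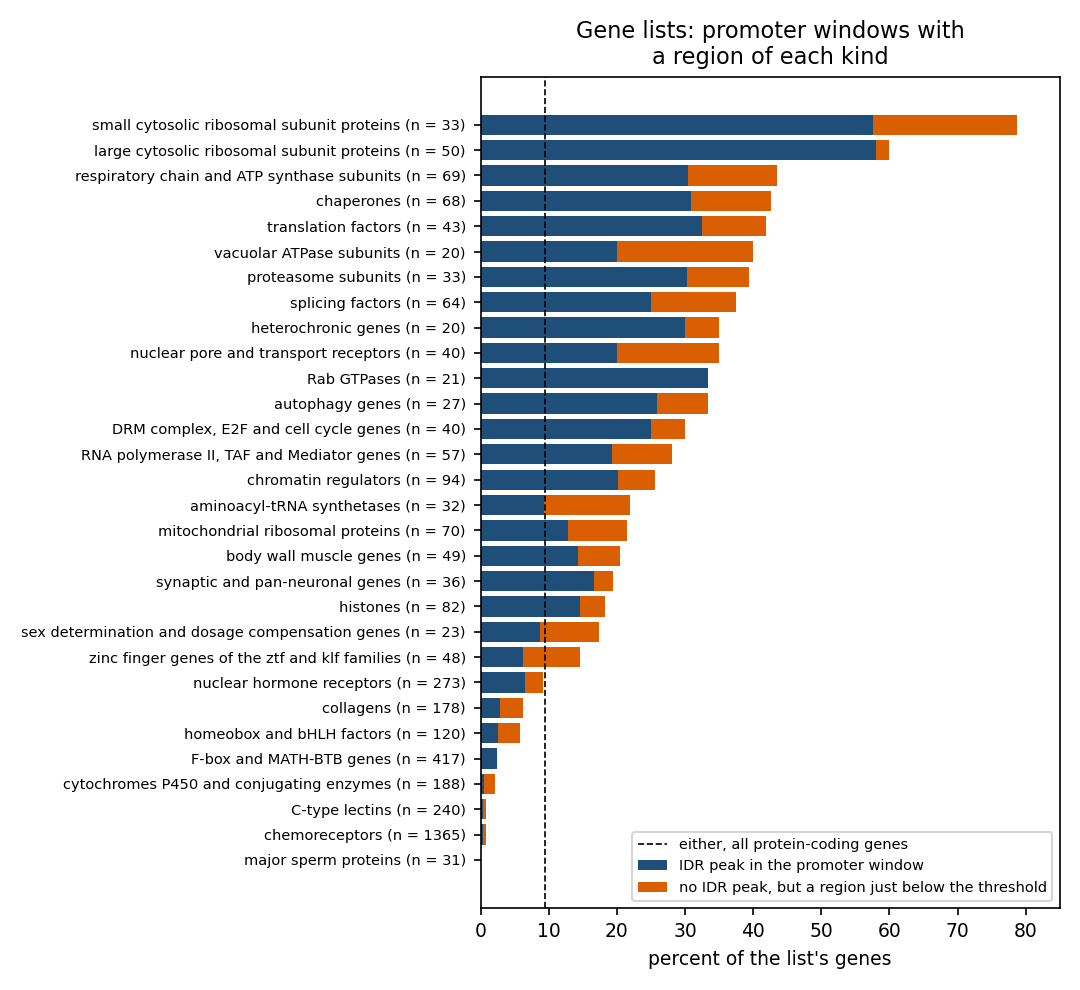
Percent of the genes of each of 30 lists with an IDR peak in the promoter window (blue) and with a sub-threshold region there but no IDR peak (orange), with the list size in brackets. The dashed line marks the 9.46% of all protein-coding genes with either. The small ribosomal subunit list reaches 78.8% and the chemoreceptor list 0.806%.

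Short non-coding genes were also near sub-threshold summits. Within 200 bp of a tRNA gene lay 49 summits (3.38%, 2.51 to 4.45), against 44 of the IDR peaks (2.32%), a difference that did not pass the test (Fisher's exact test, 2-sided, Benjamini-Hochberg adjusted over 10 gene types, p = 0.162), while 0.272% of genome bases lie that close. These summits touched 54 of 612 tRNA genes (8.82%), IDR peaks touched 50 (8.17%) and no tRNA gene had both. The strongest of them on a tRNA gene was WBGene00014538 on X (47.8, 28.9 and 17.3, −61 bp), followed by WBGene00023070 on X (47.8, 23.5 and 28.6, −20 bp). In 23 of the 54 the summit lay inside the gene. Near snoRNA genes the order was the other way, with 20 summits (1.38%) against 56 of the IDR peaks (2.95%, exact test, adjusted p = 0.0226). Spliceosomal and other snRNA genes had 3 (0.207%) against 17 (0.896%), and genes annotated only as ncRNA 189 (13.1%) against 311 (16.4%), both with adjusted p = 0.038 by the exact test. In unmatched regions of the same ranks the snoRNA, snRNA and ncRNA shares were 1.33%, 0.222% (1 region) and 11.8%. The lower shares were thus not particular to the regions that recurred. Of genome bases, 0.182%, 0.0655% and 3.50% lie that close to these 3 gene types. Near miRNA genes lay 5 summits (0.345%) against 8 of the IDR peaks (0.421%), a difference that did not pass the test. Of genome bases, 0.118% lie that close. The strongest of the 5 was at mir-2214 on III (49.1, 31.8 and 18.7, −14 bp). Of 20 summits near piRNA genes (1.38%) the genome share is 3.32%. Reads from near-identical tRNA copies may be assigned to either copy, and no source used here says how the authors treated them.

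The genes that the strain was built on were looked up whatever their values. No region of the pooled list lay within 1000 bp of ztf-4. At unc-119, the gene mutated in the strain, a sub-threshold region lay in an intron (rank 3600, chrIII:10905101-10905450) with signals of 34.6 pooled, 13.8 in replicate 1 and 24.4 in replicate 2. An IDR peak lay in an intron of the same gene (rank 969) with 71.8, 25.2 and 46.9. Replicate 2 was the higher at both.

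Sub-threshold summits carried the same short sequences as IDR summits, at lower frequency. The 10 6-mers were taken from the IDR peaks as those with the largest ratio of presence within 50 bp of the summit to presence in windows centred 300 bp to each side, among those in at least 5% of IDR peaks, counting both strands. They were then counted in the 1420 sub-threshold regions more than 400 bp from any IDR summit, and all 10 were more frequent at the summit than in the flanks (exact McNemar test, the larger p of both flanks, Benjamini-Hochberg adjusted over 10, highest p = 0.00109). ACGCAG was in 149 regions (10.5% against 1.87% in flanks, ratio 5.62, exact adjusted p = 6.0e-19), against 17.3% of IDR peaks. CGTCTC was in 151 (10.6% against 3.42%, ratio 3.11, exact adjusted p = 3.0e-13), against 20.3%, and GCGCGC in 52 (3.66% against 0.810%, ratio 4.52), against 6.74%. GACGCA was in 9.86%, AGACGC in 9.44% and CGCAGA in 9.15% of sub-threshold regions, and these overlap ACGCAG by 4 or 5 bases. The remaining ones were rarer, with ACGCGC in 5.63%, CGCGCC in 4.37%, CACGCG in 4.30% and CGCGGC in 2.46%.

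Each of the 10 was less frequent at sub-threshold than at IDR summits (Fisher's exact test, 2-sided, highest adjusted p = 0.000474). The IDR frequencies chose the 6-mers and are therefore high by selection, so the size of this difference depends in part on that choice. At least 1 of the 10 lay within 50 bp of the summit in 438 of 1420 sub-threshold regions (30.8%), with 11.97% and 10.8% in the left and right flanks. In IDR peaks it was 50.1%, in unmatched regions of the same ranks 27.02%, in the matched regions of the next 1898 ranks 21.9%, and in windows of the same length 5' of all protein-coding genes 14.2%. These 6-mers are rich in G and C, and G+C moved with them: the median at the summit was 41.6% in sub-threshold regions and 46.5% in IDR peaks, against 34.7% in the flanks of both and 35.4% in the genome. The part of base composition in the 6-mer ratios was not tested.

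Chained together, 5 of the 6-mers spell GAGACGCAGA, a 10-mer put together after the counts were seen and so given with no test. It, or its reverse complement TCTGCGTCTC, lay within 50 bp of 58 of 1420 sub-threshold summits (4.08%, 3.12 to 5.25), with 3 and 8 in the flanks. In IDR peaks it was at 154 of 1898 (8.11%), in unmatched regions at 2.54%, and in windows of all promoters at 0.961%. The sti-1 and miz-1 windows printed above hold it. Of the 58, 26 (44.8%) were in promoter windows. The strongest lay near C46F11.6 on III (49.1, 16.3 and 33.1), in an intron of dab-1 (49.1, 21.3 and 26.95) and in the 5' UTR of gldi-8 (48.8, 24.1 and 24.01). Another lay in the 5' UTR of zip-11, a bZIP gene, 134 bp past its 5' end (47.4, 17.7 and 26.9). Others lay upstream of skr-1, a Skp1-related gene (48.4, 24.9 and 20.4), pash-1, a partner of Drosha in miRNA processing (42.6, 23.1 and 18.996), lin-40 and sti-1. Their pooled ranks ran from 1933 to 3737, and 982 of the 1420 regions held none of the 10 6-mers near the summit.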

How the data were processed

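The data are peak lists from ChIP-seq of 2 biological replicates, deposited by the authors for assemblies ce10 and ce11. Per the deposited records, relaxed lists of peaks and background were called against a control in each replicate and on pooled alignments, and an IDR-thresholded list was derived. No source used here names the aligner, the caller or the IDR cutoff. The signal value that the authors deposited for each region was treated as the caller's height, which no source used here states, and the deposited −log10 q value was used only as description. The files hold no read counts, so depth is unknown. Per the labels, size selection was 150 to 350 bp.

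Regions were ranked by pooled signal in ce11. Summits were placed on the genes of Ensembl release 115 (WBcel235, another name of ce11), and sequence came from its RefSeq copy. An overlap was resolved in the order coding exon, UTR, non-coding exon, intron. Shares were compared by Fisher's exact test and 6-mers by the exact McNemar test (SciPy 1.17.1, pandas 2.3.3, Python 3.11.15), with Benjamini-Hochberg adjustment within each family and a threshold of 0.05. Intervals are exact Clopper-Pearson 95% intervals, which cover counting error only. The functions recovered planted differences in simulated data. Named genes are those of the 15 strongest regions, the 10 that recurred best in both replicates, ztf-4 and unc-119. Up to 3 per gene list were named by signal, with further members named only to complete short lists or to give the replicate order over a list. For sequences, they are those of the strongest promoter region of each of II to V and X and of some regions with the most leading 6-mers. Regions led by 1 replicate, gene bodies, X against autosomes, the non-coding gene types and the 10-mer were chosen after values were seen. The members and gene lists were chosen with earlier results of these data known, and the lists support nothing by themselves. Alternatives changed the match rule, the ranks, the promoter window, the IDR comparison list, the 6-mer window and the assembly. The IDR peaks matched in both replicates and the split of the unmatched comparison by X were added after seeing the data.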

Additional observations from a re-analysis of the deposited data

How the results depend on the processing

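The promoter difference stayed negative in all 13 alternatives (−12.4 to −4.79 points). It missed the threshold in 1 of them, which kept only matches among the strongest regions of each replicate (318 regions, 174 genes, promoter difference −4.98 points). That setting also left 3' UTRs at 1.197, non-coding exons at −1.83 and V at −3.17 points, introns at −0.215, and 3 of the 10 6-mers short of the threshold, with ratios of 4 for GCGCGC and CGCGGC and 2.31 for CACGCG. Against unmatched regions it gave 7.12 points for promoters, now past the threshold, and 1.65 for X. These are differences of sub-threshold regions from IDR peaks in percentage points unless stated.

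With the nearer 949 ranks only, 760 regions and 398 genes were counted, and 3' UTRs (1.13), non-coding exons (−1.56) and introns (2.32) no longer passed. With the farther ones (688 regions, 309 genes), introns gave 3.74, II 0.315, III −0.960, IV −0.505, the X difference from unmatched regions 1.55 and the CGCGGC ratio 2.75. A summit distance of 50 bp gave −2.27 for non-coding exons, 1.79 for introns, −0.990 for I and 5.49 for promoters against unmatched regions, again past the threshold. A distance of 200 bp gave −0.235 for IV and 5.67 for X against unmatched regions, and matching by overlap −0.0296 for III, −0.144 for IV and 3.82 for X against unmatched regions. Leaving out regions within 500 bp of an IDR summit gave 2.81 for introns, the narrow promoter window 393 genes, the ce10 lists −0.0660 for I, and the weaker IDR peaks alone −0.838 for IV. Without replicate 1 or replicate 2, the difference on IV ranged from −0.416 to 0.285. The comparison with unmatched regions, split after seeing the data, was 8.29 points on autosomes and −11.03 on X. No chromosome share passed the threshold in any of these settings. The other alternatives, 244 of 285 in all, kept direction and side of the threshold. The causes of these changes were not tested.

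No paired analysis was possible because there is 1 group. Depth is unknown, peaks are not replicates, and with 2 replicates and no control analysed here, recurrence shows agreement between these samples only.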
